A study of Mus musculus with 2 samples.

Results

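The genes described here are 43 ribosome biogenesis genes, of 32285 genes counted in the series, followed in DMSO- and DAB-treated mouse MDSCs. They were taken from a written list of gene symbols, and all 43 were found. The list was drawn up after earlier results of the same data were known. The values over all cells, and those within classes and clusters of the same cells, are therefore a description and not a test of the list. By the step they serve, 6 act in transcription by RNA polymerase I (Pol I), 9 in small nucleolar ribonucleoproteins (snoRNPs), 11 in assembly of the small ribosomal subunit and 13 in assembly of the large subunit, and 4 are nucleolar chaperones, a helicase and a nucleolar zinc finger protein.

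A ribosome begins in the nucleolus, where Pol I copies the ribosomal DNA into a long precursor RNA. snoRNPs mark that precursor for methylation and pseudouridylation and guide its first cleavages, while many assembly factors fold and trim it as the ribosomal proteins join, and the small and the large subunit then leave the nucleus by separate routes. The genes for these factors are well known targets of the transcription factor MYC, and cells that grow and divide carry more of their mRNA than cells at rest. In the granulocyte lineage, nucleoli are large in early progenitors and shrink as granules form.

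MDSCs (myeloid-derived suppressor cells) were grown from the bone marrow of C57BL/6 mice (female, 10 weeks of age). Both groups received 50 ng/mL of GM-CSF and 50 ng/mL of IL-6 for 4 days, one with 1.5 µmol/L dabrafenib (DAB), a BRAF inhibitor, and the other with a matching volume of DMSO. There was 1 single-cell library per condition, from the 10x Genomics 5′ v2 chemistry, and how many mice contributed to a library is not stated in the labels or methods. MDSCs made in culture are a model of the cells that arise in tumours and hold several myeloid states at once.

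After filtering, 9032 DMSO cells with 92311309 unique molecular identifiers (UMIs) and 10476 DAB cells with 141459512 UMIs remained, at a median of 7523 and 9508 UMIs per cell. The myeloid marker Itgam had a UMI in 82.1% and 84.6% of them, Ly6c2 in 44.6% and 50.6% and Ly6g in 22.9% and 16.0%. The libraries shared 152 barcode sequences. Levels are given in CPM, the UMIs of a gene for every 1000000 UMIs of the same cells. Each UMI tags the 5′ end of 1 molecule, so CPM was not divided by gene length. With 1 library per condition there is no spread between replicates and no test was made. A log2 ratio is DAB over DMSO, and its 95% interval covers counting error only. A ratio of 0.5 or more in size was counted as a difference.

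Promoter sequences are shown for 4 members as a description. MYC is known to bind the E-box CACGTG, and whether it does so in these cells was not tested. Nop56 and Nop58 had the highest ratios, and Rrn3 and Nop2 were those with an E-box in the 100 bases before the start. Each is the 100 bases before the RefSeq start on GRCm38.p6, read 5′ to 3′ on the strand of the gene, with an E-box (CACGTG) or an ETS core (CCGGAAG, on either strand) that lies wholly within it in capitals.
Nop56, chr2:130274312-130274411, + strand: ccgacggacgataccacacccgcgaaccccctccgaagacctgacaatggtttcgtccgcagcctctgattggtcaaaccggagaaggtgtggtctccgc
Nop58, chr1:59684906-59685005, + strand: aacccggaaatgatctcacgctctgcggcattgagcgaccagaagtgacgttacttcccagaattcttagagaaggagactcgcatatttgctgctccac
Rrn3, chr16:13780599-13780698, + strand: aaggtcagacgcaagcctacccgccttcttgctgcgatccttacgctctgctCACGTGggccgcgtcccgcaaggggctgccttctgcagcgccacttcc
Nop2, chr6:125131783-125131882, + strand: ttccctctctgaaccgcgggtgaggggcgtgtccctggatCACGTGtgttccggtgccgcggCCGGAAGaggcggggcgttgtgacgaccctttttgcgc

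The full RefSeq windows, 300 bases that run from 250 before to 50 after a start, were found for 37 members. In these windows, 7 members (18.9%) held the E-box CACGTG, namely Rrn3, Utp20, Wdr43, Pno1, Tsr1, Nop2 and Pes1. The share was 8.09% over all genes with a window and 12% over the 9464 with at least 200 UMIs here. It was 18.2% over 121 other ribosome biogenesis genes and 9.09% over 66 cytosolic ribosomal protein genes. By step, the E-box was held by 1 of 5 Pol I, 0 of 8 snoRNP, 4 of 10 small subunit and 2 of 11 large subunit genes. It was held by 0 of 3 genes of the nucleolar chaperones and helicase. These numbers are small, and a link between the E-box and the ratios was not tested. The ETS core CCGGAAG was held by 12 members (32.4%), against 9.93% of all genes with a window and 21.2% of those with at least 200 UMIs. The other ribosome biogenesis genes (43%) and the cytosolic ribosomal protein genes (39.4%) held it more often than the members. The GC box GGGCGG was held by 67.6%, against 38.2% and 67.7%, and GCATGCGC, a part of the NRF1 motif, by 10.8%, against 3.05% and 6.05%. All 4 motifs were read on both strands, and a match is a description of the letters only.

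Over all cells, nearly every member was higher in the DAB library. The summed members made up 1796 CPM in DMSO (1788 to 1805) and 2570 CPM in DAB (2561 to 2578), a log2 ratio of 0.52 (0.51 to 0.52). The median member had a log2 ratio of 0.81, and 38 of 43 members lay at or above 0.5 and 0 at or below -0.5. Of all 12110 genes with at least 200 UMIs over both libraries, 13.7% lay at or above 0.5 and 14.9% at or below -0.5. All 43 members passed that minimum, the least counted with 1198 UMIs. Fewer cells of a type and less RNA per cell cannot be told apart in such a sum, and with the same mix of classes in both libraries the sum had a ratio of 0.34, the median member 0.64 and 30 members lay at or above 0.5.

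The sum and the median differ because 1 member, Npm1, held a large part of the sum and differed little. Summed by step, the ratio was 0.77 (0.76 to 0.79) for snoRNP genes, 0.75 (0.72 to 0.78) for small subunit genes and 0.80 (0.78 to 0.82) for large subunit genes. It was 0.55 (0.52 to 0.59) for Pol I genes and 0.25 (0.24 to 0.27) for the nucleolar chaperones and helicase, the group that Npm1 belongs to. The 5 members under 0.5 were Polr1c, Rrn3, Npm1, Fbl and Lyar. Lyar, at 0.498, lay just outside the limit, and Nob1 at 0.51 and Pes1 at 0.52 just inside it.

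**Figure D1:**
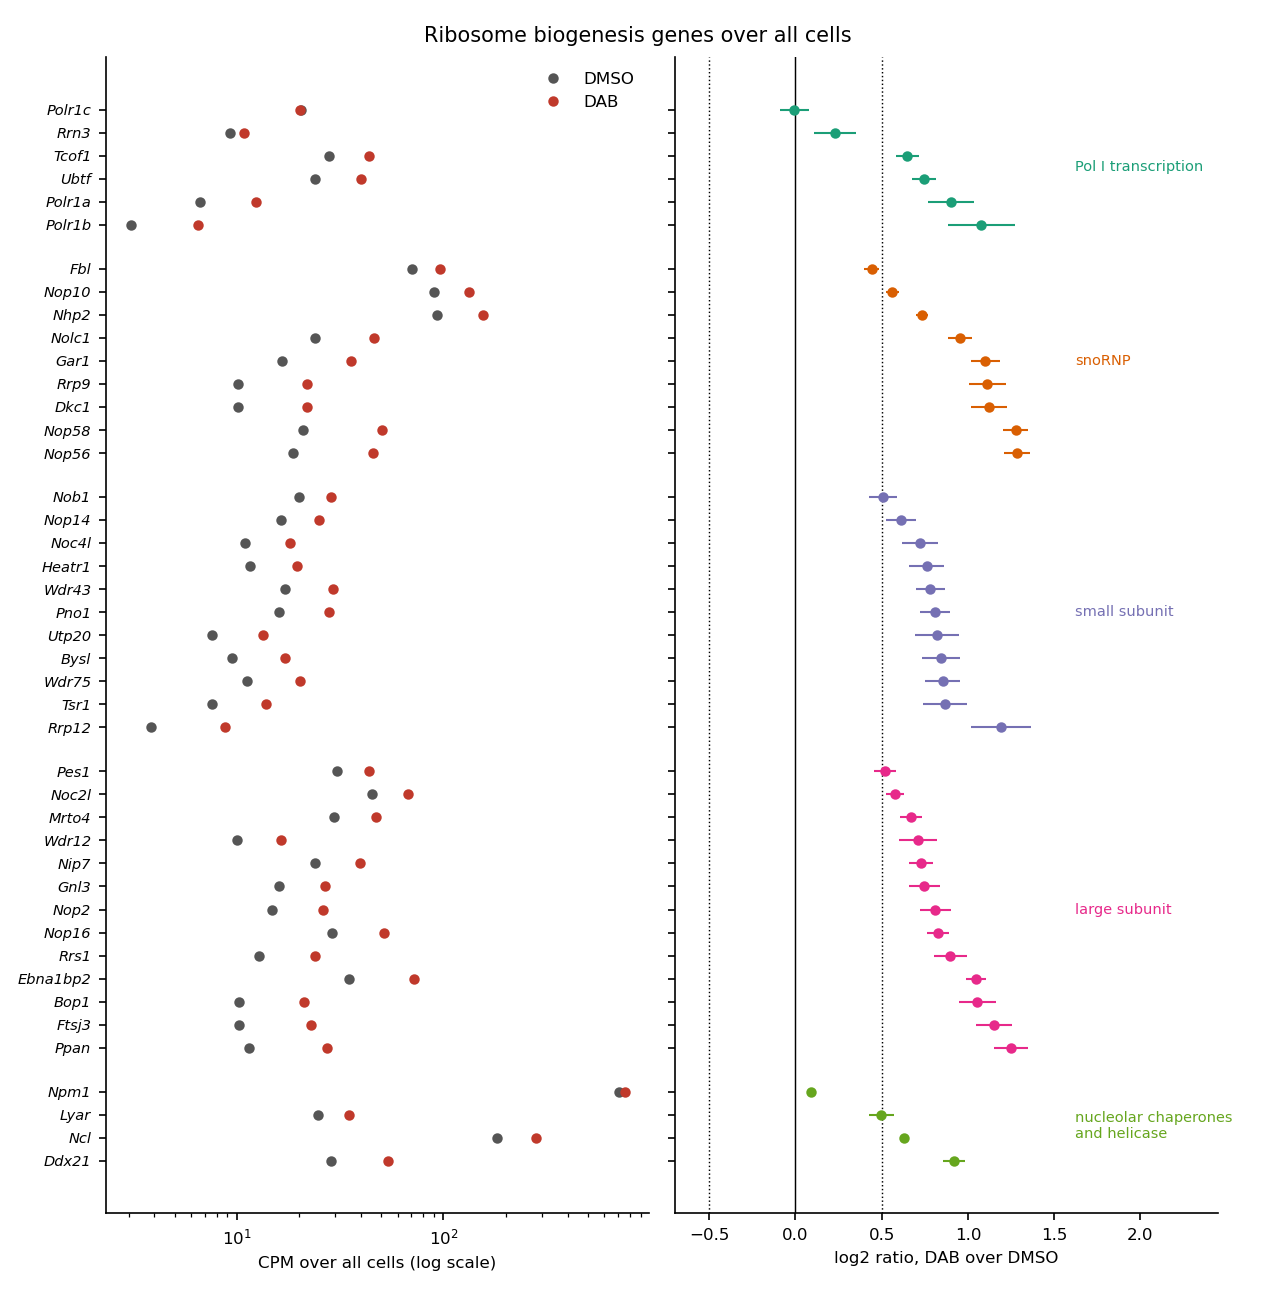
Level and ratio of the 43 members over all cells, grouped by step. Left, CPM on a log axis in the DMSO (grey) and DAB (red) library; right, log2 ratio of DAB over DMSO with the 95% counting interval, dotted lines at -0.5 and 0.5; all members but Polr1c lie above 0, from 0.09 for Npm1 to 1.28 for Nop56.

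Pol I transcription showed the widest spread between members of 1 step, with a median ratio of 0.70. Tcof1, which encodes treacle, a nucleolar protein that keeps the ribosomal DNA active, was the most abundant, at 27.9 CPM in DMSO and 43.7 CPM in DAB (log2 ratio 0.65). Ubtf, the factor that opens and marks the ribosomal DNA, went from 24.0 to 40.2 CPM (0.75). Polr1a, the largest catalytic subunit of Pol I, went from 6.61 to 12.3 CPM (0.90, interval 0.77 to 1.04). Polr1b, the other subunit of the catalytic core, was the least abundant member, at 3.07 and 6.47 CPM, with the highest ratio of the step (1.08, 0.88 to 1.27). Polr1c (ENSMUSG00000067148, chromosome 17 from 46243920 to 46248054), a subunit that Pol I shares with RNA polymerase III, had the lowest ratio of all members, at 20.4 CPM in DMSO and 20.3 CPM in DAB (-0.01, -0.09 to 0.08). Rrn3, which recruits Pol I to its promoter, stood at 9.27 and 10.9 CPM (0.23, 0.11 to 0.35). The catalytic subunits and the shared subunit of the same enzyme thus did not move together.

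The snoRNP genes had the highest median ratio, 1.10, and 8 of 9 lay at or above 0.5. Nop56 (ENSMUSG00000027405, chromosome 2 from 130274430 to 130279313) and Nop58 (ENSMUSG00000026020, chromosome 1 from 59684971 to 59719044) encode the paired scaffold of box C/D snoRNPs, and no E-box or ETS core was found in the promoter windows printed for them. Nop56 went from 18.7 to 45.5 CPM, a ratio of 1.28 (1.21 to 1.36). Nop58 went from 20.9 to 50.7 CPM, a ratio of 1.28 (1.20 to 1.35). Fbl, the ribose methyltransferase of the same particle, was at 70.6 CPM in DMSO and 95.9 CPM in DAB and had the lowest ratio of the step (0.44, 0.40 to 0.49). The H/ACA particle, which makes pseudouridine, consists of Dkc1, its catalytic subunit, with Gar1, Nhp2 and Nop10. Dkc1 went from 10.1 to 22.0 CPM (1.12) and Gar1 from 16.6 to 35.6 CPM (1.10). Nhp2, the most abundant of the step, went from 93.4 to 155 CPM (0.73) and Nop10 from 89.7 to 132 CPM (0.56). In both particles the most abundant members had the lower ratios. Nolc1, a nucleolar chaperone of snoRNPs, went from 23.8 to 46.2 CPM (0.96), and Rrp9, of the snoRNP that guides the early cleavages, from 10.1 to 21.9 CPM (1.11).

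All 11 small subunit genes lay at or above 0.5, with a median of 0.81. All of them were of low abundance, the early and the late factors alike. Heatr1 went from 11.6 to 19.7 CPM (0.76), Wdr43 from 17.1 to 29.3 CPM (0.78) and Wdr75 from 11.2 to 20.3 CPM (0.85), all of them proteins that bind the precursor as it is transcribed. Utp20, a large scaffold protein of the early particle, went from 7.59 to 13.4 CPM (0.82). Nop14 went from 16.4 to 25.1 CPM (0.61) and its nucleolar partner Noc4l from 11.0 to 18.1 CPM (0.72). Rrp12, which takes part in export of the particle, was the least abundant of the step and had its highest ratio, at 3.86 and 8.81 CPM (1.19, 1.02 to 1.37). Among the factors of the late steps, Bysl went from 9.50 to 17.1 CPM (0.84) and Tsr1 from 7.58 to 13.8 CPM (0.87). Pno1, which holds the end of the precursor until the last cut, went from 16.0 to 28.0 CPM (0.81). Nob1, the nuclease that makes the last cut, was the most abundant of the step in DMSO and had its lowest ratio, at 20.02 and 28.5 CPM (0.51, 0.43 to 0.59).

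All 13 large subunit genes lay at or above 0.5 as well, with a median of 0.81. Pes1, Bop1 and Wdr12 form the PeBoW complex, which joins the early large subunit particle, and its members differed. Pes1 had the lowest ratio of the step, at 30.5 and 43.8 CPM (0.52, 0.46 to 0.59). Bop1 went from 10.2 to 21.2 CPM (1.05, 0.95 to 1.16), and Wdr12 from 10.1 to 16.4 CPM (0.71). Ebna1bp2, another early assembly factor, was the most abundant of the step in DAB, at 72.4 CPM against 35.1 CPM in DMSO (1.05). Noc2l, a nucleolar factor of the same particles, was the most abundant in DMSO, at 45.2 CPM against 67.4 CPM in DAB (0.58). The highest ratio of the step was that of Ppan (ENSMUSG00000004100, chromosome 9 from 20888175 to 20892178), an early large subunit factor, at 11.5 and 27.4 CPM (1.25, 1.15 to 1.35). The rRNA methyltransferases Ftsj3 and Nop2 went from 10.3 to 22.8 CPM (1.15) and from 14.9 to 26.1 CPM (0.81). Nop16 went from 29.0 to 51.4 CPM (0.83), Rrs1 from 12.8 to 23.9 CPM (0.90) and Nip7 from 23.8 to 39.5 CPM (0.73), all large subunit assembly factors. Gnl3, or nucleostemin, a nucleolar GTPase, went from 16.0 to 26.8 CPM (0.75). Mrto4, which holds the place of a stalk protein, went from 29.5 to 47.0 CPM (0.67).

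In the last group, Npm1 (ENSMUSG00000057113, chromosome 11 from 33152287 to 33163206), a nucleolar chaperone that also binds histones, was the most abundant of all members and differed least of the 4. It stood at 706 CPM in DMSO and 753 CPM in DAB, a ratio of 0.09 (0.08 to 0.11). Npm1 has many processed pseudogenes, and reads could be shared with them in counting. Ncl, nucleolin, an RNA-binding protein of the nucleolus, went from 181 to 280 CPM (0.63, 0.60 to 0.66). Ddx21, an RNA helicase that works with Pol I and with snoRNAs, had the highest ratio of the group, at 28.5 and 53.9 CPM (0.92). Lyar, a nucleolar zinc finger protein, stood at 24.8 and 35.0 CPM.

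The wider pathway was also higher in DAB, with a lower median ratio. Of 146 other genes of ribosome biogenesis, 63 lay at or above 0.5 and 0 at or below -0.5, 127 lay above 0, and the median ratio was 0.41. The medians were 0.44 for 46 small subunit genes, 0.43 for 51 large subunit genes, 0.43 for 22 genes of the exosome and RNase MRP, 0.37 for 12 snoRNP genes and 0.29 for 15 Pol I genes. The highest were Rpp25, of RNase MRP, at 0.617 and 1.63 CPM (1.40, 0.97 to 1.84), Pop1, of the same enzyme, at 4.19 and 9.56 CPM (1.19), and Rrp15, of the large subunit, at 8.96 and 18.1 CPM (1.01). The lowest were Rrp1b at 44.1 and 31.7 CPM (-0.48), the helicase Ddx52 at 24.8 and 18.6 CPM (-0.42) and Nop53 at 94.0 and 71.5 CPM (-0.39). The genes of the ribosome itself differed little. Of 84 cytosolic ribosomal protein genes with enough UMIs, 1 lay at or above 0.5 and the median was 0.07, while 78 mitochondrial ribosomal protein genes had a median of 0.22.

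**Figure D2:**
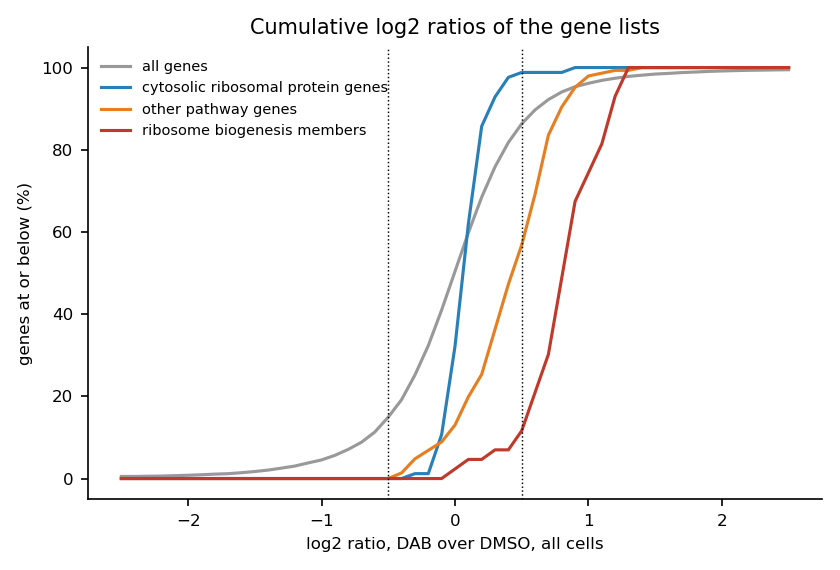
Share of genes (vertical axis, %) at or below each log2 ratio of DAB over DMSO (horizontal axis) over all cells, for all genes, cytosolic ribosomal protein genes, the other pathway genes and the 43 members. The curve of the members lies furthest to the right, with a median of 0.81, against 0.41 for the other pathway genes and 0.07 for the cytosolic ribosomal protein genes.

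Cells were next divided into classes by markers, with the members, the other pathway genes, ribosomal protein genes and proliferation genes left out of the clustering. Of 26 clusters, lettered A to Z, 16 were named and 10, with 33.0% of DMSO and 37.5% of DAB cells, were not. In both libraries the granulocyte progenitor-like class (cluster V, 146 and 148 cells, led by Ctsg, Elane and Prtn3) had the highest summed members, 3233 CPM in DMSO (3172 to 3295) and 4667 CPM in DAB (4604 to 4729). Among 9 classes in DMSO it had the highest level for 20 of 43 members, and among 8 classes in DAB for 33. The lowest was the intermediate granulocyte-like class (clusters B, K and N, 1937 and 1148 cells). Camp and Ngp led cluster K. Ly6g stood among the 10 leading genes of clusters B and N, which did not hold Camp, Ngp or Ltf. Of the markers used for the mature PMN-like class, Cxcr2 was among those of B and Mmp9 among those of N. Most DAB cells of the intermediate granulocyte-like class lay in clusters B (551) and N (429). The sum of the intermediate granulocyte-like class was 780 CPM (765 to 795) in DMSO and 1324 CPM (1304 to 1345) in DAB. Per cell this was 5.41 and 13.9 UMIs of the members, against 73.2 and 145 in the granulocyte progenitor-like class. Of the members, 34 in DMSO and 36 in DAB had their lowest level in intermediate granulocyte-like cells. Counts of highest and lowest classes were not made for all genes, so they cannot be read as particular to the members. In DMSO, Npm1 stood at 1670 CPM in granulocyte progenitor-like and 250 CPM in intermediate granulocyte-like cells. Nop56 stood at 32.7 and 7.90 CPM in the same classes, and at 103 and 21.9 CPM in DAB.

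The remaining classes lay between these. In DMSO the order downwards was B cell-like (2849 CPM), mature monocyte-like (2195), immature monocyte-like (1930), activated dendritic cell-like (1772), chemokine-high granulocyte-like (1764), mature PMN-like (1660) and macrophage-like (1537), and the intervals of the activated dendritic cell-like and chemokine-high classes overlapped. In DAB it was mature monocyte-like (3333 CPM), B cell-like (3189), macrophage-like (2180), immature monocyte-like (2172), mature PMN-like (2040) and chemokine-high granulocyte-like (1950), and the macrophage-like and immature monocyte-like intervals overlapped. Mature monocyte-like cells passed above B cell-like cells in DAB, and mature PMN-like cells had more CPM of the members than intermediate granulocyte-like cells in both libraries. Counted per cell, mature PMN-like cells had 7.29 UMIs of the members in DMSO and 8.51 in DAB, above intermediate granulocyte-like cells in DMSO and below them in DAB. Classes too small to compare were at 1712 CPM in 65 activated dendritic cell-like cells of DAB, at 1576 and 2171 CPM in 47 and 95 basophil or mast cell-like cells, and at 2222 and 2682 CPM in 20 and 24 T or NK cell-like cells.

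**Figure D3:**
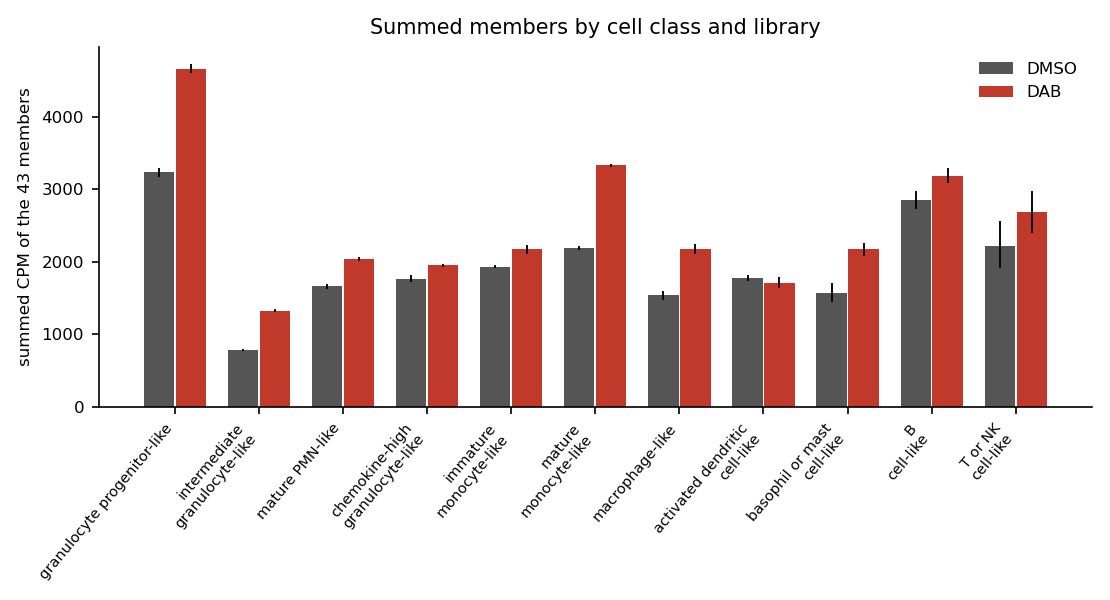
Summed CPM of the 43 members (vertical axis, from 0) in each marker-named class, DMSO in grey and DAB in red, with 95% Poisson intervals. Granulocyte progenitor-like cells stand highest (3233 and 4667 CPM) and intermediate granulocyte-like cells lowest (780 and 1324 CPM).

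Within classes, 8 of which had at least 100 cells in each library, the members were higher in DAB by differing amounts. Counts below cover members with at least 50 UMIs over both libraries, and the shares of all genes use the same minimum. A gene of few UMIs can pass it mainly through the library in which it is high. High ratios of rarely counted members, such as Polr1b below, are therefore favoured by the minimum. The largest summed ratio was in intermediate granulocyte-like cells, 0.76 (0.73 to 0.80), with 39 of 43 members at or above 0.5 where 22.4% of all genes were (15.7% at or below -0.5). Polr1b was the highest, at 0.894 and 4.07 CPM from 12 and 49 UMIs (2.19, 1.26 to 3.23), and Polr1a, at 5.29 and 5.99 CPM, the lowest (0.18, -0.31 to 0.67). Ppan went from 4.10 to 15.1 CPM and Nop58 from 9.09 to 28.2 CPM. Cluster K held 833 DMSO and 168 DAB cells of this class and cluster N 125 and 429. The summed ratio within clusters B, K and N was 0.56, 0.51 and 0.66, each below that of the class. The class ratio also holds the shift in mix between these clusters, and the part of that shift was not tested.

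In mature monocyte-like cells (cluster F, 475 and 759 cells), the members went from 2195 to 3333 CPM, a ratio of 0.60 (0.58 to 0.62). Again 39 of 43 members lay at or above 0.5, where 18.8% of all genes were (20% at or below -0.5). Ppan was the highest, from 7.80 to 29.2 CPM (1.90, 1.55 to 2.27), and Rrn3 the lowest, at 10.0 and 10.3 CPM (0.05, -0.30 to 0.41). This was the class in which the proliferation list, 26 genes of the cell cycle, was also higher, at 694 and 1004 CPM (0.53). In granulocyte progenitor-like cells the summed ratio was 0.53 (0.50 to 0.56), and 38 of 43 members lay at or above 0.5, where 16% of all genes were (20.1% at or below -0.5). Ppan was the highest there too, from 21.2 to 71.5 CPM (1.75, 1.38 to 2.15). Npm1 was the lowest, at 1670 and 1647 CPM (-0.02, -0.07 to 0.03). When the members and pathway genes were kept in the clustering, the summed ratio of this class was 0.20 and its median member 0.69.

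In mature PMN-like cells (clusters A, J and O, 1385 and 1809 cells), the members went from 1660 to 2040 CPM, a ratio of 0.30 (0.26 to 0.33), and to 0.16 with scaling by the median of ratios. Of 41 members tested, 33 lay at or above 0.5, where 22% of all genes were. Ftsj3 was the highest, at 6.74 and 21.1 CPM (1.64, 1.14 to 2.18). Npm1, at 619 CPM in DMSO and 403 CPM in DAB, was the 1 member at or below -0.5 (-0.62, -0.69 to -0.55), where 11% of all genes were. Cytosolic ribosomal protein genes moved with Npm1 here: 58 of 84 lay at or below -0.5, and their sum went from 206011 to 136347 CPM (-0.60). Within cluster A, Npm1 stood at 651 and 470 CPM (-0.47) and within cluster J at 532 and 404 CPM (-0.40), while Ncl was higher in DAB in both (0.47 and 0.42). Cluster A held 1113 DMSO and 574 DAB cells and cluster J 201 and 813, and the summed members had a ratio of 0.40 and 0.24 within them. The part of the ribosomal protein genes' share of UMIs in these ratios was not tested.

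Chemokine-high granulocyte-like cells (clusters D and H, 440 and 2025 cells, with Cxcl3, Cxcl2, Ccl4 and Ccl3 among the leading genes) had the smallest summed ratio, 0.14 (0.10 to 0.19), and it was -0.02 without doublet removal. Within cluster D (183 and 1162 cells) it was -0.04, and within cluster H (257 and 863 cells) 0.42. Gpnmb was also among the leading genes of both clusters, with Ccl2, Mmp13 and Serpinb2 in D and Atp6v0d2 and Mpeg1 in H. The granulocyte part of the name rests on the rule that S100a8 or Csf3r exceed the other clusters, and the lineage was not tested. Of 43 members, 11 lay at or above 0.5, where 12.8% of all genes were (14.8% at or below -0.5). Nob1 was the highest, at 10.4 and 20.3 CPM (0.97), and Polr1c the lowest, at 23.7 and 17.6 CPM (-0.43, -0.80 to -0.04). The proliferation list differed most in this class, from 878 to 154 CPM (-2.51). Among cells without a proliferation UMI the members went from 1436 to 1893 CPM (0.40, 0.35 to 0.45), and among the 28 and 20 cells with at least 3 they stood at 3226 and 3227 CPM.

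Immature monocyte-like cells (cluster G, 1040 and 152 cells) also had a low summed ratio, 0.17 (0.13 to 0.21), and 10 of 43 members lay at or above 0.5, where 10.4% of all genes were (24.8% at or below -0.5). Polr1a was the highest, at 6.14 and 13.04 CPM (1.09, 0.47 to 1.66), and Rrn3 the lowest, at 11.4 and 8.15 CPM (-0.49, -1.23 to 0.17). The proliferation list went from 1090 to 237 CPM (-2.20) in this class. In cells without a proliferation UMI the members' ratio was 0.10 (0.05 to 0.15).

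The classes with fewest cells had fewer members to compare. Those named as highest here, Nop2 and Gar1, passed the minimum mainly through their UMIs in DAB. In macrophage-like cells (cluster U, 167 and 131 cells) the summed ratio was 0.50 (0.43 to 0.58). There 22 of 30 members lay at or above 0.5, where 14.9% of all genes were, the same share as at or below -0.5. Nop2 was the highest, at 6.61 and 24.4 CPM from 11 and 40 UMIs (1.88, 0.89 to 2.99), and Nop10 the lowest, at 156 and 149 CPM (-0.07). In B cell-like cells (cluster R, 142 and 192 cells), which are not myeloid, the summed ratio was 0.16 (0.09 to 0.24). Of 23 members, 12 lay at or above 0.5, where 21.9% of all genes were (15.3% at or below -0.5). Gar1 was the highest, at 9.24 and 38.03 CPM from 7 and 44 UMIs (2.04, 0.88 to 3.44), and Npm1 the lowest, at 1490 and 1197 CPM (-0.32, -0.43 to -0.20).

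**Figure D4:**
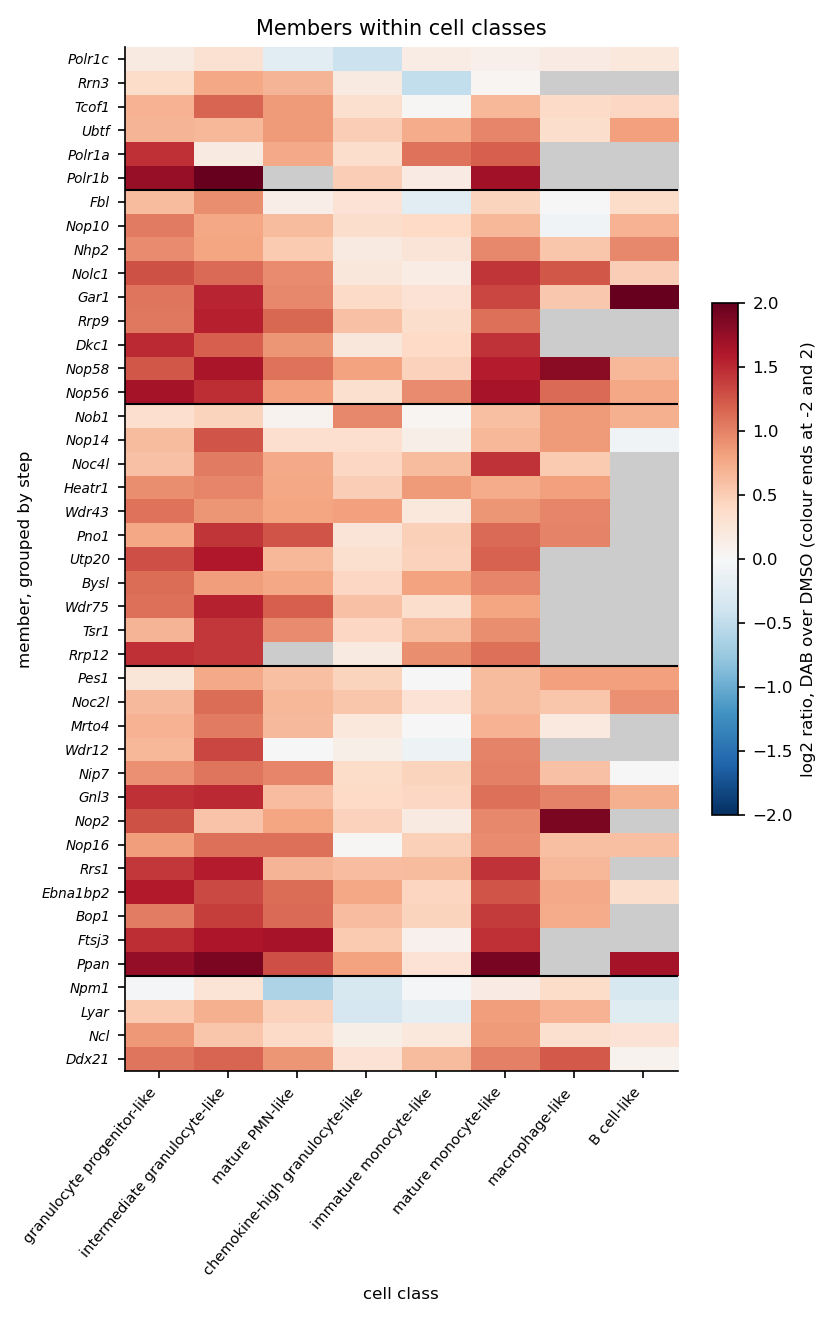
Log2 ratio of DAB over DMSO for each member (rows, grouped by step) in the 8 classes compared (columns), red where DAB is higher and blue where it is lower, and grey where a member had under 50 UMIs. Columns of granulocyte progenitor-like, intermediate granulocyte-like and mature monocyte-like cells are red for 38, 39 and 39 members at or above 0.5, and the row of Npm1 holds the 1 value at or below -0.5.

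Some members reached a ratio of 0.5 in more classes than others. Rrs1 lay at or above 0.5 in all 7 classes where it had enough UMIs, and Nop56, Nop58 and Noc2l in 7 of 8. Of all genes, 10.4% to 22.4% lay there in a class, and no count across classes was set beside these for all genes. Polr1c did so in 0 of 8, with ratios from -0.43 to 0.31, and Npm1 in 0 of 8, with ratios from -0.62 to 0.36. In 20 clusters both libraries had 100 cells or more. There, the summed members had a ratio at or above 0.5 in 6 and at or below -0.5 in 0. The ratio was above 0 in 19 and below 0 in 1, cluster D (-0.04), and the highest was 0.66, in cluster N. In all 20 the members' median ratio exceeded that of the genes as a whole. These clusters are parts of the same 2 libraries, whose earlier results were known when the list was drawn up. They are neither replicates nor separate support for the list.

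Over all cells, the summed members were higher in cycling cells than in other cells of each library, while single members within a class were not always so. Every cell was thinned to 1500 UMIs to count the UMIs of the proliferation list, and cells with fewer, 430 of DMSO and 290 of DAB, were not used. In DMSO the summed members were at 1628, 1945, 2253 and 2381 CPM in cells with 0, 1, 2 and at least 3 proliferation UMIs. In DAB they were at 2231, 2877, 3657 and 3799 CPM. Cells with at least 3 against those with fewer had a log2 ratio of 0.48 (0.47 to 0.50) in DMSO and 0.68 (0.67 to 0.69) in DAB. Here 16 of 43 members in DMSO lay at or above 0.5, where 20% of all genes did, and 28 in DAB, where 20.6% did. Classes differ in their share of cycling cells. Among those with at least 20 cycling cells in DMSO, it ran from 26.7% of granulocyte progenitor-like to 6.10% of intermediate granulocyte-like cells. Mature PMN-like cells had fewer than 20, and only 1.77% of them in DMSO held at least 2 proliferation UMIs. Within classes that held at least 20 cycling cells in a library, the summed ratio ran from 0.25 in granulocyte progenitor-like cells to 1.10 in chemokine-high granulocyte-like cells, both in DMSO. In intermediate granulocyte-like cells of DMSO the sum was higher in cycling cells (0.41, 0.33 to 0.49), but 16 of 37 members were, and the median member was at -0.18, against 0.12 for all genes. In DAB, 28 of 41 members of that class were higher in cycling cells, with a median of 0.35, against 0.14 for all genes. There 16 members lay at or above 0.5, where 28.5% of all genes did, and only 49 cells were cycling. Cycling cells of the whole libraries were also deeper before thinning, at a median of 16660 and 28493 UMIs against 7465 and 9165.

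The difference between the libraries was present in cells with and without proliferation UMIs. In cells without one, 6642 of DMSO and 8234 of DAB, the summed ratio was 0.45 (0.44 to 0.46), and in cells with at least 3 it was 0.67 (0.65 to 0.69). Over all cells the proliferation list itself was lower in DAB, at 952 and 790 CPM (-0.27). Whether the ratio differed between cycling and other cells was not tested.

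**Figure D5:**
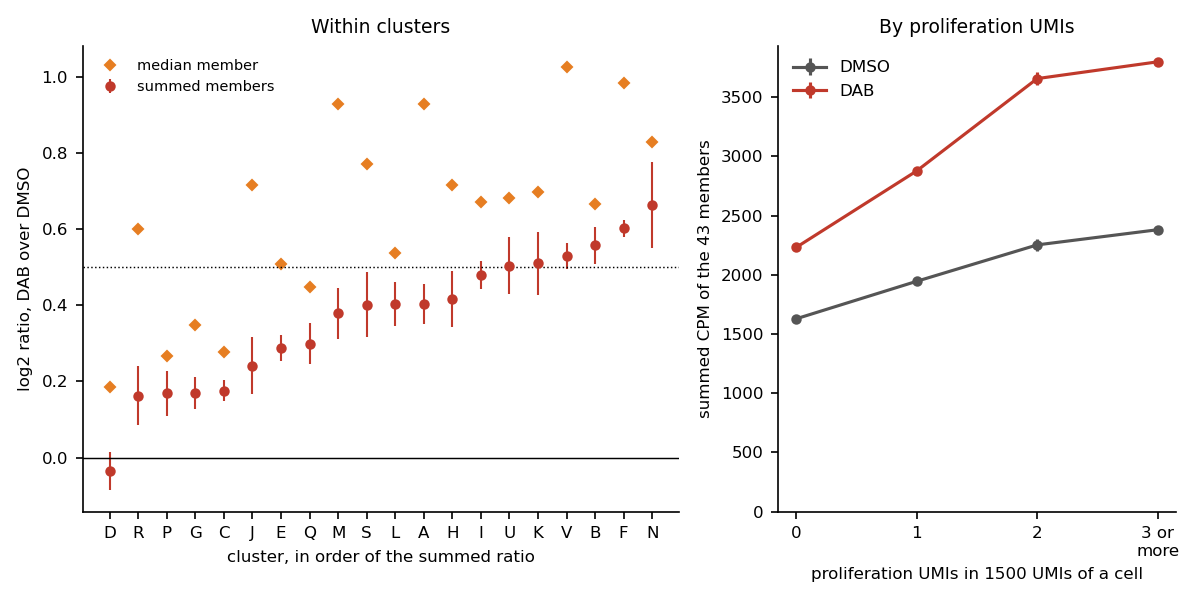
Left, log2 ratio of DAB over DMSO in each of the 20 clusters compared, for the summed members (red, with 95% counting intervals) and the median member (orange); the sum lies below 0 only in cluster D. Right, summed CPM of the 43 members (from 0) in cells with 0, 1, 2 and at least 3 proliferation UMIs, from 1628 to 2381 in DMSO (grey) and from 2231 to 3799 in DAB (red).

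The levels of the members went together over 48 profiles, each 1 cluster in 1 library with at least 50 cells. The Pearson correlation of a member's log2 CPM with that of the summed other members had a median of 0.77, from 0.42 for Bysl to 0.89 for Ncl. The profiles share their libraries and base composition, and those of rare members carry counting noise. Both libraries were pooled, so the difference between them enters the correlations, and no median over all genes was set beside them. Npm1, which holds a large part of the sum, was at 0.53. The summed members had a correlation of 0.60 with the summed cytosolic ribosomal protein genes and of 0.05 with the proliferation list. Of 5527 other genes, the 5 whose profiles were most like the sum were Prmt1 (0.94), Cct2 (0.94), Serbp1 (0.93), Cct5 (0.92) and Set (0.92). Prmt1, a protein arginine methyltransferase, was at 43.8 CPM in DMSO and 73.0 CPM in DAB.

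MYC and its antagonist MXD1 compete for the partner MAX at E-boxes. Myc was at 46.3 CPM in DMSO and 79.3 CPM in DAB (0.78), and it was higher in DAB in all 8 classes compared, from 0.35 in immature monocyte-like to 1.68 in macrophage-like cells. Mxd1 was at 134 CPM in DMSO and 49.6 CPM in DAB (-1.44). It was lower in DAB in 7 of these 8 classes, from -0.91 in mature PMN-like to -2.35 in mature monocyte-like cells. B cell-like cells held 14 and 12 UMIs of Mxd1, too few to compare. Activated dendritic cell-like cells, with 65 cells in DAB, were not compared. Their Mxd1 went the other way, at 71.3 and 99.6 CPM. Their Myc was at 22.4 and 14.6 CPM from 103 and 19 UMIs, with overlapping intervals. In basophil or mast cell-like cells, also not compared, Mxd1 was at 219 and 158 CPM and Myc at 24.9 and 48.7 CPM. For both genes the intervals of DMSO and DAB overlapped there. Intermediate granulocyte-like cells, where the members were lowest, had the highest Mxd1 of the 8 classes in DMSO, at 349 CPM. Granulocyte progenitor-like cells, where the members were highest, had 76.2 CPM, above immature monocyte-like (48.5), mature monocyte-like (45.8) and macrophage-like cells (45.1). In DAB, Mxd1 was at 148 CPM in mature PMN-like and 147 CPM in intermediate granulocyte-like cells, with overlapping intervals. Myc was at 67.8 CPM in DMSO and 126 CPM in DAB in granulocyte progenitor-like cells. It was at 37.5 and 79.9 CPM in intermediate granulocyte-like cells, above mature monocyte-like cells (31.5 and 53.9 CPM). In the rest of the network, ratios over all cells were 0.54 for Mycn, 0.48 for Mlx, 0.27 for Max, 0.11 for Mga and 0.10 for Mxd3. They were -0.18 for Mxd4, -0.39 for Mnt and -0.66 for Mxi1, and Mycl had too few UMIs. Some differed between classes with enough UMIs. Mycn was at -0.04 in granulocyte progenitor-like, 2.30 in mature monocyte-like and -1.64 in immature monocyte-like cells, the last from 48 and 2 UMIs. Mxd3 was at -0.39 in intermediate granulocyte-like, -2.265 in immature monocyte-like and 1.34 in mature monocyte-like cells. A role of these genes was not tested. Over the 48 profiles the summed members had a correlation of 0.53 with Myc and of -0.73 with Mxd1, which are mRNA levels and say nothing of the proteins.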

How the data were processed

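The deposited matrices held whole-number UMI counts, without normalization, that the authors made with Cell Ranger 7.0.0 on mm10. No source used here states whether intronic reads were counted. Barcodes over 10% mitochondrial UMIs (55 DMSO, 89 DAB) and scored doublets (768 and 1066) were left out of 9855 and 11631. Pearson residuals (theta 100) were taken of 3000 variable genes, without the members, other pathway genes, ribosomal protein genes and proliferation list. Each cell's level of the proliferation list and its mitochondrial share were regressed out of the residuals, so the clusters were made with cycling held back. The residuals gave 40 principal components, aligned between libraries by mutual nearest neighbours (k = 20) and clustered by Leiden at resolution 0.9 (Python 3.11.15, numpy 2.4.6, scipy 1.17.1, igraph 0.11.9, leidenalg 0.10.2).

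A cluster took the name of the class, of 15 marker lists, with the highest mean log2 fold (10 CPM added), if at least 3 markers and at least 0.5 of those detected reached 1, and if it held more of that class's markers than of another's among its 10 leading genes. For granulocyte classes, S100a8 or Csf3r had to exceed the other clusters too. This rule was set after the clusters were seen, and 11 lists named a cluster. UMIs were summed per library and class. CPM carry exact Poisson intervals and ratios exact conditional (Clopper-Pearson) intervals at 95%, for counting error only. The interval code was tested on simulated data.

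The members and lists were chosen with earlier results of these data known. Named genes were the most abundant, lowest and highest member of each step, every member at 0.5 or more in size, the lowest and highest of each class, the 3 lowest and 3 highest other pathway genes, and the 5 genes with the most similar profile. Of 147 other pathway genes listed, 146 were matched. Positions are from GENCODE M21 (GRCm38) and promoter windows from RefSeq (GRCm38.p6). Alternatives covered scaling, weighting of cells, class mix, filters, doublets, minimum UMIs, clustering and the call of cycling cells.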

Additional observations from a re-analysis of the deposited data

Results flagged for a closer look

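The 4 nucleolar chaperones and helicase, summed, went opposite ways in different classes, each with a counting interval that left out 0; the difference between classes was not tested, as there is 1 library per condition. Their log2 ratio of DAB over DMSO was 0.42 in intermediate granulocyte-like, 0.41 in macrophage-like, 0.33 in mature monocyte-like and 0.17 in granulocyte progenitor-like cells. It was -0.24 in mature PMN-like, -0.19 in B cell-like and -0.18 in chemokine-high granulocyte-like cells. Npm1 made up most of this sum and had ratios of -0.62, -0.32 and -0.33 in these 3 classes. The summed Pol I, snoRNP, small subunit and large subunit genes did not split in this way, and their ratios were above 0 in all 8 classes.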

How the results depend on the processing

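No paired analysis was possible because each condition was 1 library, and for the same reason no replicate could be left out. Of 477 values under alternative settings, 352 stayed within 0.5 of the interval's width from the reported value (or, for counts, within 1.5 times). The other 125 did not, and 0 turned a called value around. For ratios and sums this was the counting interval. For medians it was an interval from the spread between genes, which does not measure counting error. Of the sums by class, 31 stayed and 37 did not, and of the medians by class 62 stayed and 14 did not. The number of members at or above 0.5 over all cells ranged from 30 to 39. Over all cells, the same class mix gave medians of 0.64 for the members, 0.74 for snoRNP, 0.64 for small subunit and 0.62 for large subunit genes, and a summed ratio of 0.34. The summed ratio was 0.49 without the 50 most counted genes in the totals, 0.51 as a mean over cells and 0.53 with no filter on cells. The median of the other pathway genes was 0.52 as a mean over cells. In chemokine-high granulocyte-like cells the median member was 0.57 as a mean over cells, 0.23 without doublet removal, 0.56 and 0.47 at Leiden resolutions 0.5 and 1.5, 0.54 without alignment and 0.49 with the members and pathway genes kept in the clustering. With those genes kept, it was 0.69 in granulocyte progenitor-like, 0.57 in immature monocyte-like and 0.82 in mature monocyte-like cells. The median member was 0.48 in immature monocyte-like and 0.64 in mature PMN-like cells with median of ratios scaling, 0.17 in immature monocyte-like cells as a mean over cells, 0.93 in mature PMN-like cells at resolution 1.5 and 0.52 in macrophage-like cells with no filter. Cycling over other cells gave 0.60 in DMSO and 0.78 in DAB without thinning, and in DAB 0.70 and 0.61 with at least 2 and 5 UMIs. The cause of these shifts was not tested. At resolution 0.5 and without alignment, granulocyte progenitor-like and immature monocyte-like cells were too few for a value.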

Other observations

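Among the clusters that took no name, the members were at their highest in cluster C (321 DMSO and 1195 DAB cells, led by Il2ra, Cd200r3 and Gata2), at 2577 and 2911 CPM. In cluster E (204 and 1064 cells, led by Cstdc5 and the stefin genes Stfa1, Stfa2 and Stfa3) they were at 2188 and 2670 CPM, and in cluster I (776 and 343 cells) at 1650.5 and 2300.1 CPM. Cluster S (162 and 166 cells, led by Crip1, Prdx1 and Cdkn2a) was at 1939 and 2562 CPM. In cluster M (313 and 343 cells), led by Gm26917, Gria3 and St6galnac3, the members were at 1627 and 2115 CPM, while cytosolic ribosomal protein genes took 15.2% of UMIs in DMSO and 8.61% in DAB.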
